A study of Mus musculus with 16 samples.

Results

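The 7 mature miRNAs described here come from imprinted loci of the mouse genome outside the large Dlk1-Dio3 and Sfmbt2 clusters. They are mmu-miR-335-5p and mmu-miR-335-3p of Mest, mmu-miR-296-5p, mmu-miR-296-3p and mmu-miR-298-5p of the Gnas antisense region, mmu-miR-483-3p of Igf2 and mmu-miR-675-3p of H19. They were chosen by name, with no measured value in the rule, and are 7 of the 1881 mature miRNAs on the array. The arrays were made from total RNA of the LV wall, the tissue lining the lateral ventricle of the brain, which carries ciliated ependymal cells among other cell types. There were 8 WT mice and 8 Dgcr8+/- mice, with 1 mouse per array, all male and 8 months old. The Dgcr8+/- mice carried 1 working copy of Dgcr8 in every cell, the WT mice were littermates, and the line was kept on a C57BL/6J background. The comparison asked which miRNAs differ in the LV wall when Dgcr8 dosage is reduced. The array holds probes for miRNAs, so Dgcr8 mRNA itself was not measured by it.

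Dgcr8 binds primary miRNA transcripts and guides the nuclease Drosha, which cuts out the hairpin, and Dicer then releases a duplex whose strands are named the 5p and 3p arms. Usually 1 arm is kept and loaded into the silencing complex, where its seed, bases 2 to 8, pairs with target mRNAs. At an imprinted locus, transcription of a gene comes mainly from the maternal or from the paternal copy, though this can differ between tissues. In many tissues Mest and Igf2 are transcribed from the paternal copy and H19 from the maternal copy, whereas Igf2 is transcribed from both copies in choroid plexus and leptomeninges, and the Gnas transcript itself from both copies in most tissues. Mest encodes an enzyme of the hydrolase fold family, Igf2 encodes a growth factor that in the adult brain is made mainly by the choroid plexus and meninges, and H19 is a long noncoding RNA that is abundant in the embryo and falls after birth. Gnas encodes the stimulatory G protein alpha subunit, and its locus also gives rise to antisense transcripts.

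The mature sequences of all 7 miRNAs, from RefSeq (GRCm38.p6), show which seeds the measurements below refer to. Each is written 5′ to 3′ with the seed in capitals.
mmu-miR-335-5p: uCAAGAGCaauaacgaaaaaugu
mmu-miR-335-3p: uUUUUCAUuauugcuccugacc
mmu-miR-296-5p: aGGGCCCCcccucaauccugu
mmu-miR-296-3p: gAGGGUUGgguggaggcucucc
mmu-miR-298-5p: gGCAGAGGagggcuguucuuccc
mmu-miR-483-3p: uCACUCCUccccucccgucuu
mmu-miR-675-3p: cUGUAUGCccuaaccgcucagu

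All 7 seeds differed from one another. Of the 1881 miRNAs on the array, 1608 were matched to a RefSeq sequence, and 0 of these other than the member itself had the seed of any member. The sequences differed in base composition, as G and C made up 30.4% of miR-335-5p and 36.4% of miR-335-3p, against 65.2% to 68.2% of the arms of miR-296 and miR-298. MiR-483-3p was built almost wholly of pyrimidines, with purines at 9.52% of its bases.

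The hairpins lay on 3 chromosomes of GRCm38.p6. Mir335 was at chr6:30741299-30741396 on the plus strand, within Mest, which is transcribed in the same direction. Mir296 was at chr2:174267047-174267125 and Mir298 at chr2:174267504-174267585, both on the minus strand with 378 bases between them. In this gene table neither lay within an annotated gene, and Mir298 was 13652 bases from the annotated end of Gnasas1, the Gnas antisense gene. Mir675 was at chr7:142577064-142577147 within H19, and Mir483 was at chr7:142654924-142654996 within Igf2, with 77776 bases between the hairpins. Both were on the minus strand.

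Marker miRNAs, listed with earlier results of these data known, were used to check the tissue. Of 6 miRNAs of ciliated cells (miR-34b, miR-34c and miR-449 arms), 5 were detected on all 16 arrays and miR-449c-5p on 0, and 0 of the 5 passed the test for genotype. Their summed normalized signal was 542 to 1287 units in WT mice and 869 to 1569 in Dgcr8+/- mice. Both choroid plexus markers were detected on all 16 arrays, and miR-204-5p was lower in Dgcr8+/- mice (log2 fold change −0.29, adjusted p = 0.0136 from limma). The other marker, miR-211-5p, did not pass the test (log2 fold change 0.002, adjusted p = 0.989 from limma). The summed choroid plexus signal was 533 to 733 units in WT mice and 403 to 624 in Dgcr8+/- mice. Of 4 markers of mesenchyme and meninges, miR-199a-5p, miR-214-3p and miR-214-5p were detected on 0 arrays. The other, miR-199a-3p, was detected on 10 arrays and did not pass the test (log2 fold change −0.41, adjusted p = 0.0683 from limma). The summed signal of the list was 14.3 to 19.004 units in WT mice and 6.87 to 15.2 in Dgcr8+/- mice. Of the tested markers of other cell types, 1 of 3 for oligodendrocytes and 2 of 4 for blood vessels were higher, 1 of 3 for microglia and immune cells was lower, 1 of 4 for neurons was lower and 1 higher, and 0 of 2 for red blood cells passed the test. Over all 495 miRNAs tested, 27.9% were lower and 28.3% higher at the same threshold. The liver miRNA miR-122-5p and the heart miRNA miR-208a-3p were detected on 0 arrays. The Dgcr8+/- arrays were dimmer, with 467 to 492 miRNAs detected against 495 to 540 on WT arrays and a summed signal of 18528866 to 23440575 against 21545358 to 29763412 units. The part of these differences in the results below was not tested.

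Detection, as marked by the scanner software, split the members into arms seen on every array and arms seen on none. MiR-335-5p, miR-335-3p, miR-296-5p and miR-298-5p were detected on 16 of 16 arrays. MiR-296-3p, miR-483-3p and miR-675-3p were detected on 0 of 16 arrays. The genotypes therefore did not differ in detection. Of all 1881 miRNAs, 430 were detected on all 16 arrays and 1316 on 0.

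For the genotype comparison, signals were quantile-normalized between arrays and given on the log2 scale. A fold change is Dgcr8+/- minus WT, and adjusted p-values are from limma with Benjamini-Hochberg adjustment over the 495 miRNAs detected on at least 8 arrays. At a threshold of 0.05, 138 of these (27.9%) were lower and 140 (28.3%) were higher in the Dgcr8+/- mice. Among the 4 members tested, 2 were lower, 1 was higher and 1 did not pass the test. The median log2 fold change was −0.22 over these 4 and 0.04 over all 495. Because quantile normalization gives all arrays the same distribution, each change is relative to the other miRNAs. In this bulk tissue, fewer cells of a type and less RNA per cell cannot be told apart.

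Both arms of the Mest miRNA were lower in Dgcr8+/- mice. MiR-335-5p had a log2 signal of 8.41 to 9.05 across the WT mice (median 8.76) and 8.13 to 8.55 across the Dgcr8+/- mice (median 8.33). The groups overlapped slightly, and 6 of 8 Dgcr8+/- mice lay below every WT mouse. The means were 8.75 ± 0.20 (SD, n = 8) and 8.31 ± 0.16 (SD, n = 8), WT first. The log2 fold change was −0.43 (standard error 0.09, 95% confidence interval −0.62 to −0.25, adjusted p = 0.000564 from limma), a ratio of 0.740 (2-sided exact permutation test, p = 0.000777).

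MiR-335-3p, the other arm of the same hairpin, had a log2 signal of 5.03 to 5.68 across the WT mice (median 5.42) and 4.51 to 5.06 across the Dgcr8+/- mice (median 4.89). Of the Dgcr8+/- mice, 7 of 8 lay below every WT mouse, and WT replicate 1 was the single WT mouse within the Dgcr8+/- range. The means were 5.41 ± 0.19 (SD, n = 8) and 4.83 ± 0.18 (SD, n = 8). The log2 fold change was −0.58 (standard error 0.09, 95% confidence interval −0.77 to −0.39, adjusted p = 5.51e-05 from limma), a ratio of 0.671 (2-sided exact permutation test, p = 0.000311). In order from the lowest fold change, miR-335-3p was number 46 and miR-335-5p number 79 of the 495 miRNAs.

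**Figure D1:**
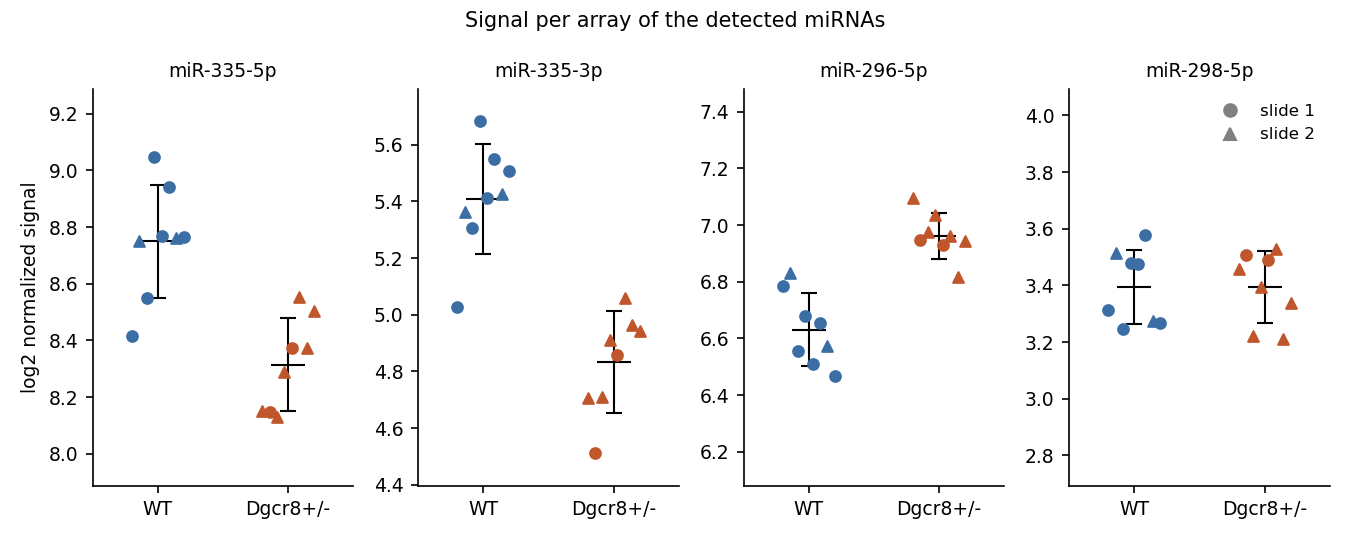
Log2 normalized signal (y axis, each panel spanning the same number of log2 units) of the 4 detected miRNAs on each array by genotype (x axis), with circles for slide 1, triangles for slide 2, and the mean and SD of each genotype in black. The Dgcr8+/- points of miR-335-5p and miR-335-3p sit mostly below the WT points, those of miR-296-5p sit above all but 1 overlap, and those of miR-298-5p cover the same range.

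The lower signal of miR-335 was present on every probe and on both slides. The 2 probes of miR-335-5p differed by −0.38 and −0.46 between the genotype means, and the 4 probes of miR-335-3p by −0.54 to −0.59. Of the miR-335-3p spots, 239 of 240 were well above background in WT mice and 189 of 240 in Dgcr8+/- mice. The dimmest of its probes was so on 8 WT and 2 Dgcr8+/- arrays. On slide 1, with 6 WT and 2 Dgcr8+/- arrays, the differences were −0.49 for miR-335-5p and −0.73 for miR-335-3p. On slide 2, with 2 WT and 6 Dgcr8+/- arrays, they were −0.42 and −0.51. Before any normalization the genotypes did not overlap for either arm. On that scale, 293 of all 495 tested miRNAs were lower in Dgcr8+/- mice and 0 higher, at an adjusted p below 0.05 from limma. The share of all miRNAs without overlap was not counted, so the lack of overlap is not read as particular to miR-335. The mean spot signal of miR-335-5p was 392 to 642 units in WT mice and 158 to 331 units in Dgcr8+/- mice, and that of miR-335-3p was 36.1 to 58.6 and 16.2 to 31.0 units. The size of the change depended on the processing, as it was −0.96 for miR-335-5p and −0.94 for miR-335-3p with no normalization. With a normexp background correction, which added an offset of 50 units to each spot, it was −0.37 and −0.20.

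The arms of miR-335 varied together from mouse to mouse. With each genotype centred on its own mean, their log2 signals had a Pearson correlation of 0.92 over the 16 arrays, and 0.94 without Dgcr8+/- replicate 2. The most alike patterns among the other 429 miRNAs detected on all arrays were, for miR-335-5p, miR-335-3p at 0.92, miR-382-5p at 0.88 and miR-7a-5p at 0.87. For miR-335-3p they were miR-335-5p, miR-500-3p at 0.91 and miR-598-3p at 0.88. The signals compared come from the same arrays and share their labelling and normalization, and 5% of the 429 miRNAs correlated with miR-335-5p at 0.75 or above. MiR-500-3p had a log2 fold change of 0.02 (adjusted p = 0.773 from limma), whereas miR-382-5p had −0.55 (adjusted p = 0.000337).

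The difference between the arms of miR-335 was tested on each array, for which the 5p log2 signal minus the 3p log2 signal was compared between genotypes. The level of this difference depends on the probes, so its change between genotypes is the measurement. The difference was 3.24 to 3.39 across the WT mice (median 3.36) and 3.38 to 3.64 across the Dgcr8+/- mice (median 3.47). Dgcr8+/- replicate 4 was the single mouse of its group within the WT range. The change was 0.14 (standard error 0.05, 95% confidence interval 0.05 to 0.24, adjusted p = 0.0396 from limma over 80 hairpins with both arms tested). Of these 80 hairpins, 14, or 17.5%, passed the threshold. The unequal change of the arms was less firm than the fall of each arm, and its call held in 1 of 6 alternatives. The adjusted p was above 0.05 when WT replicate 2, 3, 4, 5, 6, 7 or 8 or Dgcr8+/- replicate 1, 5, 6 or 8 was left out, with a highest value of 0.0837. Without normalization the change was −0.02 (adjusted p = 0.752), and with normexp it was −0.17 (adjusted p = 0.00969), the opposite direction.

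**Figure D2:**
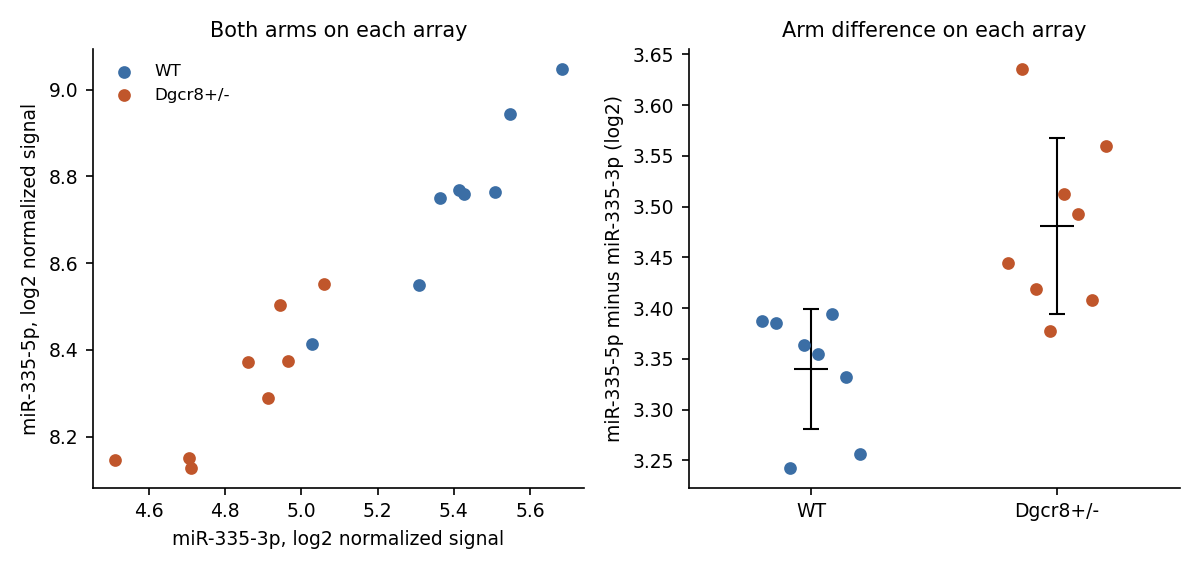
Left, log2 normalized signal of miR-335-5p (y axis) against miR-335-3p (x axis), with 1 point per array coloured by genotype. Right, the difference between the arms (log2, y axis) by genotype with mean and SD, in which 7 of 8 Dgcr8+/- points lie above every WT point.

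At the Gnas antisense region, miR-296-5p was higher in Dgcr8+/- mice, miR-298-5p did not pass the test, and miR-296-3p, detected on 0 arrays, was not tested. MiR-296-5p had a normalized log2 signal of 6.47 to 6.83 across the WT mice (median 6.61) and 6.81 to 7.09 across the Dgcr8+/- mice (median 6.95). Only Dgcr8+/- replicate 7 and WT replicate 2 overlapped, and 7 of 8 Dgcr8+/- mice lay above every WT mouse. The means were 6.63 ± 0.13 (SD, n = 8) and 6.96 ± 0.08 (SD, n = 8). The log2 fold change was 0.33 (standard error 0.06, 95% confidence interval 0.21 to 0.45, adjusted p = 0.000137 from limma), a ratio of 1.26 (2-sided exact permutation test, p = 0.000311), whereas with no normalization between arrays it was −0.14 (adjusted p = 0.254).

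The direction for miR-296-5p thus depended on the scale. Its mean spot signal before normalization was 93.5 to 134 units in WT mice and 82.8 to 115 units in Dgcr8+/- mice, and these ranges overlapped. Without normalization the median fold change of all 495 miRNAs moved from 0.04 to −0.39. Relative to that median, miR-296-5p was 0.29 higher with quantile normalization and 0.25 higher without normalization. Both arms of miR-335 were below the median on either scale, miR-335-5p by −0.47 and −0.57 and miR-335-3p by −0.61 and −0.55. The 2 probes of miR-296-5p differed by 0.36 and 0.31 after normalization, and the slides by 0.33 and 0.27. The patterns most like that of miR-296-5p were those of miR-3470a at 0.71, miR-320-3p at 0.66 and miR-129-1-3p at 0.66, all below the closest correlations of the miR-335 arms.

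MiR-298-5p, whose hairpin lies beside that of miR-296, did not pass the test. Its log2 signal was 3.25 to 3.58 across the WT mice (median 3.39) and 3.21 to 3.53 across the Dgcr8+/- mice (median 3.43). The groups covered nearly the same range, with means of 3.39 ± 0.13 (SD, n = 8) in both. The log2 fold change was 0.00 (95% confidence interval −0.14 to 0.14, adjusted p = 0.997 from limma). Its signal was close to background. Of its 480 spots over the 16 arrays, 15.6% were well above background, against 100% for miR-296-5p and miR-335-5p and 89.2% for miR-335-3p. Of its 4 probes, 3 were well above background on 0 arrays, and the other was so on 6 WT and 3 Dgcr8+/- arrays. Starting from the deposited total signals per miRNA, the log2 fold change of miR-298-5p was 0.82 (adjusted p = 0.012), and with no normalization it was −0.36 (adjusted p = 0.00335). The closest patterns were those of miR-7045-5p at 0.63, miR-107-3p at 0.62 and miR-320-3p at 0.57, and its correlation with miR-296-5p was 0.41.

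**Figure D3:**
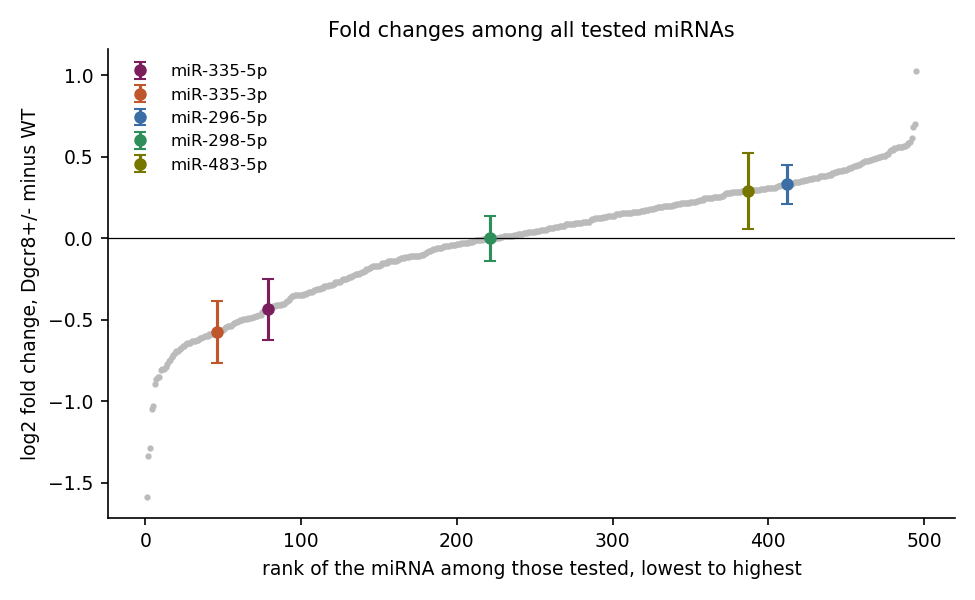
Log2 fold change between genotypes (y axis) of the 495 tested miRNAs in order from lowest to highest (x axis, grey), with the 4 tested members and miR-483-5p coloured and drawn with 95% confidence intervals. The arms of miR-335 sit at ranks 46 and 79, miR-298-5p at 0.00 and miR-296-5p at rank 412.

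The remaining 3 members were not well above background in either genotype, and no fold change is given for them. The mean spot signal of miR-296-3p was −4.64 to −1.79 units over the 16 arrays and that of miR-675-3p −2.07 to 0.28 units. The negative control spots averaged 1.47 to 3.09 units on WT arrays and 1.53 to 3.75 units on Dgcr8+/- arrays, so both arms lay below the negative controls. MiR-483-3p was at 5.38 to 7.49 units in WT mice and 4.74 to 7.36 units in Dgcr8+/- mice, above the mean of the negative controls. Still, 5 of its 480 spots were well above background, all on WT arrays. These values bound what the arrays could show and do not show that the arms were absent.

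The arms opposite to the members were also examined. For miR-296 only the 5p arm was detected, so the change of the arm difference could not be tested. MiR-298-3p and miR-675-5p were detected on 0 arrays, with mean spot signals of −0.89 to 0.67 and −5.12 to −3.03 units. H19 therefore had neither arm of miR-675 detected. The Igf2 hairpin differed, because its 5p arm was detected on 16 arrays while its 3p arm was detected on 0.

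mmu-miR-483-5p: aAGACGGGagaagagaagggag

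This arm is printed because it was the only detected product of the Igf2 or H19 hairpins, and purines made up 95.5% of its bases. Its log2 signal was 3.97 to 4.22 across the WT mice (median 4.17) and 4.16 to 5.21 across the Dgcr8+/- mice (median 4.37). Dgcr8+/- replicate 2 stood apart at 5.21, and the other 7 Dgcr8+/- mice were at 4.16 to 4.38. The log2 fold change was 0.29 with a standard error of 0.11 (adjusted p = 0.0352 from limma), and 0.18 (adjusted p = 0.00253) without that mouse. It was −0.08 (adjusted p = 0.516) with no normalization. The adjusted p was 0.0518 without WT replicate 1, 0.0647 without WT replicate 2, 0.0506 without WT replicate 5 and 0.0551 without WT replicate 7. The call was also lost with normexp, where the log2 fold change was 0.07 (adjusted p = 0.0803), with the deposited value table (0.31, adjusted p = 0.0567) and with no filter on detection (adjusted p = 0.133). With the slide as a block the log2 fold change was 0.44 (adjusted p = 0.00284). On slide 1 alone, which holds Dgcr8+/- replicate 2, it was 0.58 (adjusted p = 0.0372). On slide 2 alone it was 0.29 (adjusted p = 0.0164). Of its 480 spots, 55.4% were well above background.

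**Figure D4:**
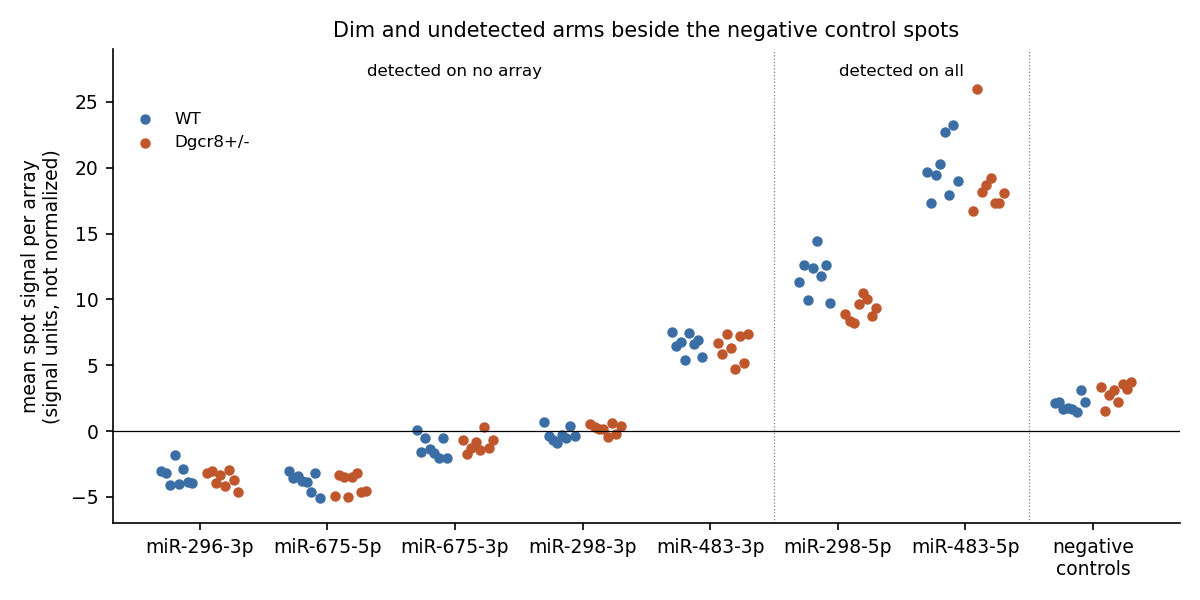
Mean spot signal per array before normalization (y axis, signal units) for the 5 arms detected on no array, for miR-298-5p and miR-483-5p, and for the negative control spots, with 1 point per array coloured by genotype. MiR-296-3p and both arms of miR-675 sit around or below 0, miR-483-3p at 4.74 to 7.49 units, and negative controls at 1.47 to 3.75 units.

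Other imprinted loci give context for the miR-335 fall. Of 112 array miRNAs encoded between Dlk1 and Dio3 on chromosome 12, 57 were tested, of which 43 were lower and 3 higher in Dgcr8+/- mice, with a median log2 fold change of −0.36. Of 52 array miRNAs named after hairpins within Sfmbt2, a family of near-identical copies, 9 were tested, of which 4 were lower and 2 higher, with a median of 0.10. Over all 495 tested miRNAs, 27.9% were lower and 28.3% higher, and the median was 0.04. Both lists were drawn with earlier results of these data known, and no test was made of either list.

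The calls, though not the sizes, of the miR-335 changes held under each alternative tried. Over 19 other ways of processing or fitting the data, miR-335-5p and miR-335-3p stayed lower with an adjusted p below 0.05 in all 19. MiR-296-5p stayed higher in 18, the exception being no normalization. MiR-298-5p stayed short of the threshold in 17, the exceptions being no normalization and the deposited total signals. With any 1 of the 16 arrays left out, none of these 4 calls changed.

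**Figure D5:**
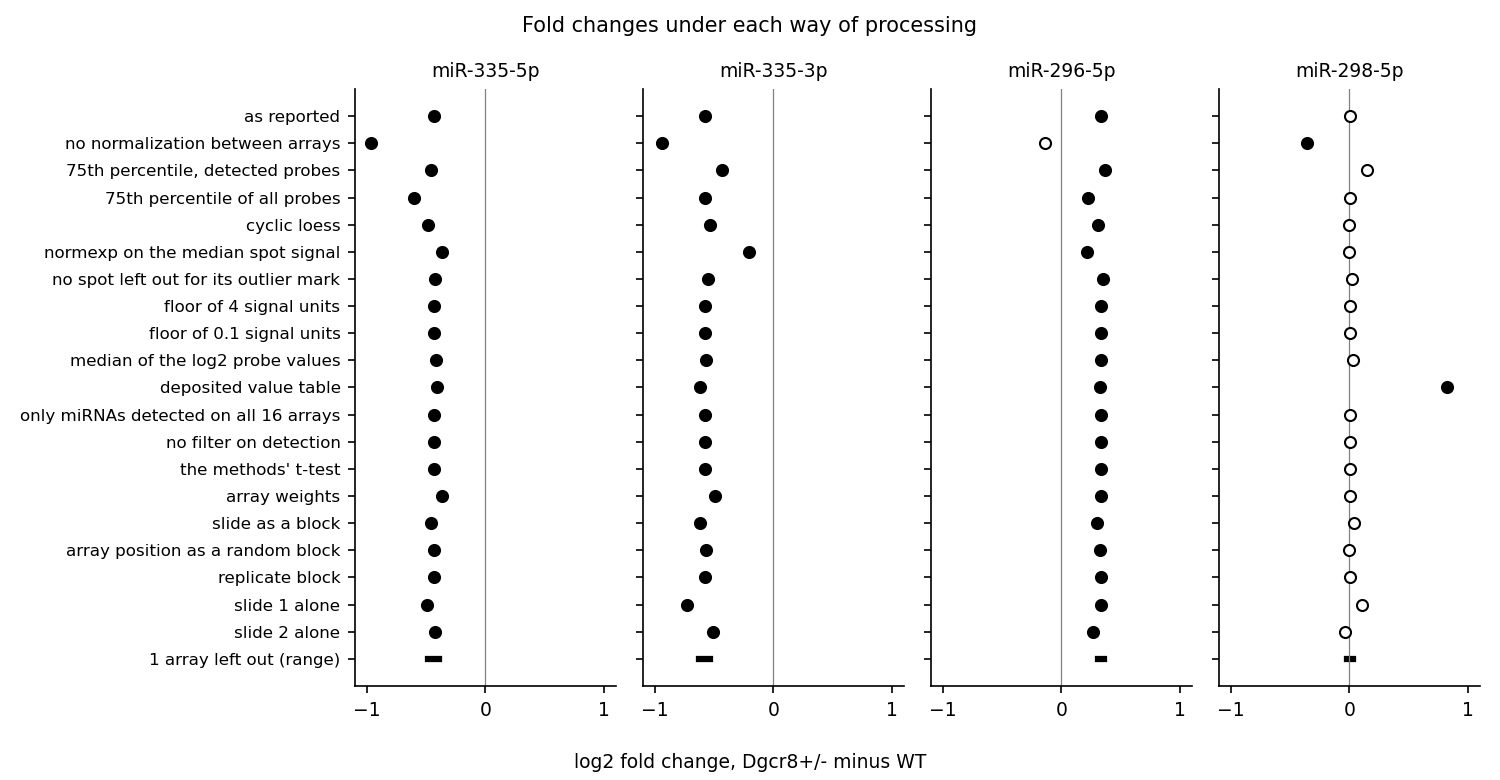
Log2 fold change (x axis) of the 4 tested members under each way of processing (rows), with filled circles for an adjusted p below 0.05, open circles for those above it, and a bar for the range with 1 array left out. The circles of miR-335-5p and miR-335-3p are all filled and left of 0, while miR-296-5p moves left of 0 with no normalization.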

How the data were processed

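Total RNA of the LV wall from 8 WT and 8 Dgcr8+/- mice was labelled with Cy3 and hybridised to 1-colour Agilent mouse miRNA arrays with 4415 probes. For every array the authors deposited a scanner file in which Agilent Feature Extraction gave a background-corrected intensity per spot, not normalized between arrays. The labels name version 10.5.1.1 and the file headers 10.7.3.1. The deposited value table holds the software's total intensity per miRNA (largest difference 0), on a linear scale. Array depth is not defined for intensities, and the number of arrays limits the precision.

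Spots marked as outliers were left out, spots were averaged per probe, probes were quantile-normalized as the methods state, then averaged per miRNA, and log2 values were computed with a floor of 1 unit. Genotypes were compared with limma 3.58.1 in R 4.3.3, tested on simulated data. Slides 1 and 2 were used as a block in an alternative. The methods' t-test was an alternative.

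The text names the 7 miRNAs, the opposite arms, and the 3 miRNAs most alike in genotype-centred signal to each tested one. The members and the lists were chosen with earlier results of these data known. The planned detection test was not applied, as each member was detected on all arrays or on none.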

Additional observations from a re-analysis of the deposited data

Results flagged for a closer look

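The log2 signal of miR-483-5p in Dgcr8+/- replicate 2 was 5.21, against 4.16 to 4.38 in the other 7 Dgcr8+/- mice. It was found because its gap to the next mouse was 0.790 of the range of the group, above Dixon's 95% critical value for 8 mice. Of 12 groups of values searched in this way, 1 had such an array, and chance gives about 1 in 20. The part of this array in the members' results was measured by leaving it out, which gave log2 fold changes of −0.41 for miR-335-5p, −0.53 for miR-335-3p and 0.33 for miR-296-5p.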

How the results depend on the processing

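Without normalization, the log2 fold change was −0.14 for miR-296-5p, −0.36 for miR-298-5p and −0.081 for miR-483-5p, and the arm difference of miR-335 was −0.019. Of the 4 tested members 0 were then higher and 3 lower, against 0 higher and 293 lower of all 495 tested miRNAs. With normexp and its offset of 50 units the arm difference was −0.17. The cause of these reversals, and the part of the offset in the last, was not tested. The deposited value table gave 0.82 for miR-298-5p and 2 members higher. The arm difference was 0.13 when marked spots were kept (adjusted p = 0.196) and 0.15 with the median of the probes (adjusted p = 0.213). Whether the replicate numbers pair the mice could not be told from the arrays. Same-numbered arrays correlated at −0.14 to 0.50 in their deviations, over 0.1 in 5 of 8 pairs, and 3 of 8 WT arrays correlated best with their own number. In a fit with a replicate block the arm difference was 0.14 (adjusted p = 0.085) and miR-483-5p was at 0.29 (adjusted p = 0.068), and the calls of the 4 tested members did not change. With 1 array left out, the arm difference was 0.12 to 0.16, with 11 of 16 omissions taking its adjusted p above 0.05, and the log2 fold change was −0.48 to −0.39 for miR-335-5p, −0.63 to −0.53 for miR-335-3p, 0.31 to 0.36 for miR-296-5p and −0.02 to 0.03 for miR-298-5p. Counting a miRNA as detected where at least 1 probe was well above background gave 9 arrays for miR-298-5p and changed 0 of the other members. Signals near background limit what can be said of miR-298-5p and of the undetected arms. The similarity without Dgcr8+/- replicate 2 was chosen after seeing the data. The arm difference of miR-296 was not run.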
